A study of Drosophila melanogaster with 4 samples.

Results

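Long stretches of the autosomes carried no called region of H3K4me1, the mono-methylation of lysine 4 on histone H3. They were taken from a region list that covers both ChIP libraries of whole Drosophila melanogaster embryos, and a stretch counted when it lay between neighbouring enriched regions on 2L, 2R, 3L or 3R and measured at least 30000 bp. Of the 6454 gaps on these arms, 462 reached that length, which is 7.16% of them, and of all 8203 gaps on every sequence of the list these 462 are the members described here. The members were chosen by the positions of the combined regions, so the lengths, counts and places given below describe the lists and carry no test. A single record that the authors list as depleted was left out first. It lay on 2L at 4402899 to 4404530, inside a gap of 22124 bp, and so in none of the long gaps.

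The embryos were wild type, of the strain Oregon-R, at 14 to 16 h of development, and no genetic change or treatment was applied. The 2 ChIP libraries used the antibody ab8895, in what the labels call new lot 2, and 2 input libraries of genomic DNA accompanied them, whose values were not analysed here. The labels number the replicates without saying whether the embryos were collected separately, and differences between the lists may thus be technical only. The list names do not tell the replicates apart, since they give a single experiment number for both. The sample labels instead name a separate experiment for each ChIP library, so one list name conflicts with its label. The numbering here follows how the repository files each list under a sample, and a list filed wrongly would change which replicate a value belongs to. Whole embryos hold many cell types, and a mark present in few cells can fail to give a called region.

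H3K4me1 is placed in Drosophila mainly by the methyltransferase Trr, the fly relative of the mammalian MLL3 and MLL4 enzymes, and it marks enhancers and the flanks of active promoters. Sequence that stays silent in most cells, such as heterochromatin next to centromeres, Polycomb-repressed domains and the lamina-bound domains that hold many tissue-specific gene clusters in flies, is known to carry little of it. Absence of a called region is not absence of the mark: reads that map to several places, stretches of unknown sequence in the assembly and read depth also limit what can be called, and their part in the gaps was not tested. Coordinates are those of FlyBase release 5, counted from 1. Gene content and sequence were not analysed here, because the gene table at hand is of release 6 and no coordinate was converted.

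The 462 long gaps made up 33.0 Mb, or 34.2% of the 96.6 Mb of the 4 arms and 52.6% of all sequence between regions. The regions themselves covered 34.8% of the same arms in the combined list. In the single lists long gaps took up more than the regions did, 38.4% against 30.8% in replicate 1 and 41.7% against 28.6% in replicate 2. Most gaps were far shorter: the median over all 6454 was 3064 bp. Among the long gaps the median was 53552 bp, the middle 50% ran from 39356 to 84925 bp, and the longest reached 314129 bp. At least 50 kb was reached by 257 of them, at least 100 kb by 86 and at least 200 kb by 14. As few as 122 of them held 50% of the total length. At the threshold, the 3 shortest members measured 30030, 30053 and 30063 bp, and the 3 gaps just under it measured 29983, 29774 and 29768 bp. There were 98 gaps from 25000 to 30000 bp and 65 from 30000 to 35000 bp, so no break in the lengths marks the threshold.

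**Figure D1:**
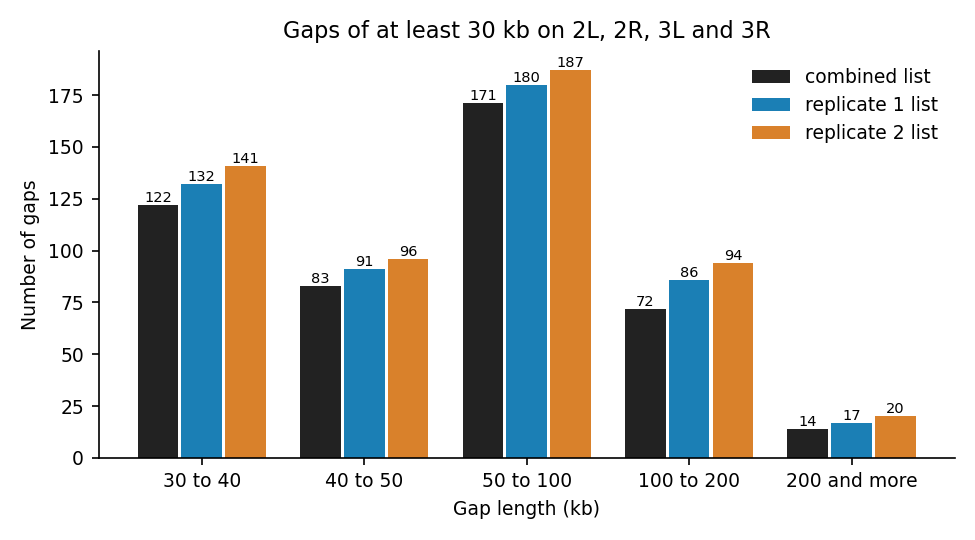
Number of autosomal gaps of at least 30 kb (vertical axis) by length class in kb (horizontal axis, classes of unequal width) in the combined list and in each replicate list. In each class the combined list has the fewest gaps and replicate 2 the most, from 122, 132 and 141 gaps of 30 to 40 kb to 14, 17 and 20 gaps of 200 kb and more.

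Each replicate list on its own had more long gaps than the combined list. Replicate 1 had 506 over 37.1 Mb and replicate 2 had 538 over 40.3 Mb, which is 40.0% ± 2.33 of the 4 arms (SD, n = 2). These arms held 6028 regions of replicate 1, 5847 of replicate 2 and 6460 of the combined list. The median length of a long gap was 53665 bp in the former replicate and 53995 bp in the latter. The long gaps of the replicates shared 35.9 Mb, or 96.8% of the long gap length of replicate 1 and 89.1% of that of replicate 2. By number, 495 of the 506 in replicate 1 and 468 of the 538 in replicate 2 overlapped a long gap of the other list by at least 1 bp. Long gaps overlap easily because they are long, and no chance level was computed.

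Arms differed little in how many long gaps they held and more in how much sequence these took. In the combined list 2L had 115, 2R had 96, 3L had 117 and 3R had 134 of them, or 5.00, 4.54, 4.77 and 4.80 per Mb. Over both replicate lists the density was 5.54 ± 0.461 per Mb on 2L, 5.32 ± 0.301 on 2R, 5.50 ± 0.173 on 3L and 5.27 ± 0.0507 on 3R (SD, n = 2), and these values differ by less than the spread on 2L. The share of the arm in long gaps was 44.9% ± 3.27 on 2L, 39.7% ± 2.18 on 3R, 39.0% ± 1.46 on 3L and 36.4% ± 2.51 on 2R. In both replicate lists and in the combined list 2L had the highest share and 2R the lowest. Gaps on 2L were also the longest, with a median of 62.2 ± 1.18 kb against 50.4 ± 0.891 kb on 2R, 52.8 ± 0.0976 kb on 3L and 55.5 ± 1.26 kb on 3R. Of the 86 gaps of at least 100 kb in the combined list, 28 were on 2L, 27 on 3R, 18 on 3L and 13 on 2R. With 1 value per arm in each of 2 lists there is no test of arms against each other. The X chromosome, which is not among these gaps, was close to the autosomes: 104 gaps of this length made up 34.8% of it in the combined list.

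The 10 longest gaps summed to 2.61 Mb, with 4 on 3L, 3 on 2L, 2 on 2R and 1 on 3R. The longest lay on 3R at 23834984 to 24149112 and measured 314129 bp. Replicate 1 was empty here over 314471 bp. Replicate 2, where a region reached 94 bp into the gap, was empty over 314115 bp. Its right-hand neighbour was a strong region of 19075 bp with a score of 1.53, and its left-hand neighbour was an ordinary one of 3168 bp with a score of 0.61. Scores are the authors' own values for each region, here in log2 units that each list sets against its own constant.

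Next came 3L at 24225644 to 24527813 (302170 bp), which ends 15744 bp before the last base of the assembled arm. Both of its neighbours were weak, with scores of 0.26 and 0.28. Replicate 1 was empty there over 302212 bp, and in replicate 2 no region followed at all, so that its empty stretch of 519159 bp ran to the end of the arm. Other members of the 10 on 3L stood nearby, at 23722459 to 24001053 (278595 bp) and at 23334399 to 23574856 (240458 bp). In replicate 2 the stretch around the latter measured 374513 bp against 240602 bp in replicate 1. The last of the 4 on 3L was inside the arm, at 9967590 to 10189431 (221842 bp).

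On 2L the longest gap lay at 16928249 to 17220786 (292538 bp), 5790758 bp from the centromere end. It was empty in both replicate lists, and both found a longer empty stretch around it. That stretch measured 318595 bp in replicate 1, and replicate 2 had 318801 bp. The weak region on its left, 1356 bp with a score of 0.21, is what ends the gap in the combined list. The other 2L members were at 15914992 to 16166416 (251425 bp) and at 15502862 to 15728627 (225766 bp), and their neighbours were strong, with scores of 1.01 and 0.91 for the first and 0.88 and 1.26 for the second. The region with the score of 1.26 was 20408 bp wide. The longest gap of 2R lay near the centromere end at 711456 to 978133 (266678 bp), and its extent in the replicate lists was 266751 and 266868 bp. The other 2R member, at 13759903 to 13980832 (220930 bp), lay well inside the arm between regions with scores of 0.96 and 1.00, and neither replicate had a region in it. Of these 10 gaps, 4 lay within 2 Mb of a centromere end and 5 had no base pair of a region in either replicate list.

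The next question was whether both replicate lists were empty where the combined list had a long gap. The combined list covers the same libraries, so this is not independent support. Neither replicate had a region in 266 of the 462 gaps (57.6%, exact Clopper-Pearson 95% interval 52.9 to 62.1). The interval treats gaps as independent draws from a larger set, which they are not, so it carries no test. Over all 6454 gaps of these arms the share was 61.2%, so the share among long gaps is near the background and is no result about them. Replicate 1 alone reached into 120, replicate 2 alone into 68, and both into 8. This split was not computed over all 6454 gaps and is no trait of long gaps. By arm, the gaps empty in both were 79 of 117 on 3L, 65 of 115 on 2L, 51 of 96 on 2R and 71 of 134 on 3R. Nearly all of the rest was a matter of edges. In 194 gaps a replicate region reached in from the side and none lay wholly inside. Where replicate 1 touched a gap the median was 24 bp, and where replicate 2 did so it was 30.5 bp. In all, replicate 1 regions took up 7292 bp or 0.0221% of the long gap length and replicate 2 regions 4726 bp or 0.0143%, against 30.8% and 28.6% of the 4 arms as a whole. That contrast follows largely from the rule, since gaps exclude the combined regions, and shorter gaps were not compared.

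In only 2 gaps did a replicate region lie wholly inside. On 3L, replicate 1 had a region at 24203166 to 24204502, 1337 bp wide with a score of 0.39, in the gap at 24024540 to 24224001 (199462 bp). On 3R, replicate 2 had a region at 8119905 to 8121276, 1372 bp wide with a score of 0.88, in the gap at 8110722 to 8175000 (64279 bp). The other replicate had no region at either place, and both places were 9183 bp or more from the nearest edge of their gap. After these, the 8 gaps with the most sequence under replicate regions had only 233 to 332 bp of it, all at edges. They lay on 3R at 15010025 to 15047352, 15885017 to 16079268, 21162698 to 21263362 and 3139888 to 3297502, on 2R at 11271152 to 11311505 and 16072963 to 16118156, and on 3L at 15841722 to 15899161 and 9967590 to 10189431.

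The empty stretch around each long gap was then measured in each replicate list, with the stretches at arm ends included. It reached 30000 bp in both lists for all 462 gaps, which the shared libraries made likely. In replicate 1 it was longer than the gap in 430 cases and shorter in 32, with a median difference of 311.5 bp. In replicate 2 it was longer in 450 and shorter in 12, with a median difference of 2500 bp. In 173 of the 462, both replicate stretches were within 1000 bp of the combined gap. The stretch was at least 1.5 times the combined gap in 48 cases in replicate 1 and in 102 in replicate 2.

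**Figure D2:**
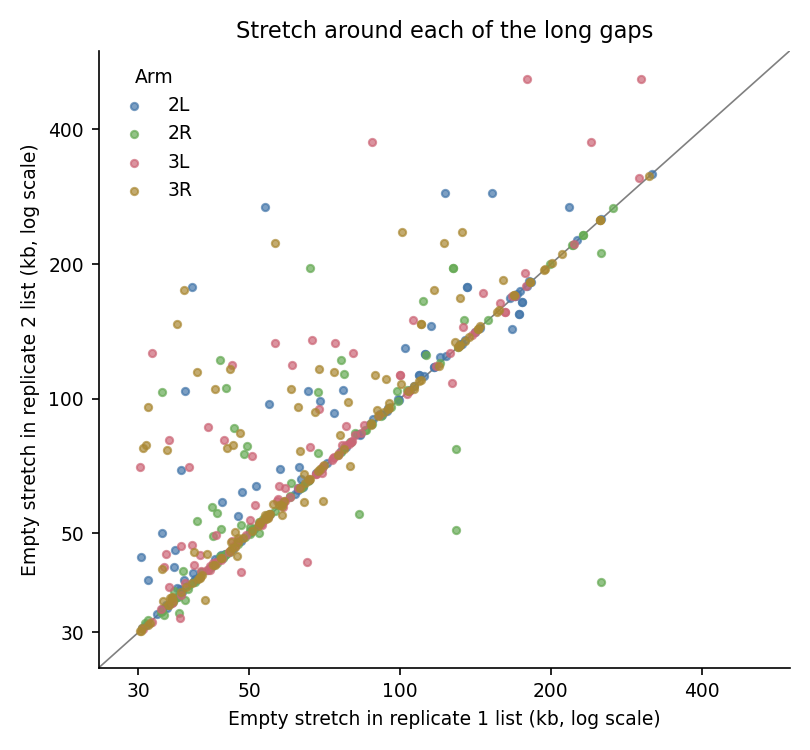
Empty stretch around each of the 462 long gaps in the replicate 1 list (horizontal axis, kb, log scale) and in the replicate 2 list (vertical axis, kb, log scale). Each point is a gap, coloured by arm, and the line marks equal lengths. Most points lie on or close to the line, and 55 gaps have a stretch at least 1.5 times longer in replicate 2 against 5 in replicate 1.

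Between the replicates, the stretch was longer in replicate 2 for 345 gaps and in replicate 1 for 117, and for 333 they were within 10% of each other. Larger differences mark places where only one library had a region that split the stretch. The gap on 2L at 11527743 to 11581187 (53445 bp) was 53623 bp long in replicate 1 and part of an empty stretch of 268852 bp in replicate 2. The gap on 3R at 24461020 to 24498221 (37202 bp) showed the same order, with 37076 bp in replicate 1 and 174569 bp in replicate 2. On 2R at 2348427 to 2387264 (38838 bp) the order was the opposite, with 251927 bp in replicate 1 and 38856 bp in replicate 2.

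Long gaps of a replicate were in part broken up in the combined list. Of the 506 in replicate 1, 313 had no combined region wholly inside, 126 had 1 and 67 had 2 or more. Of the 538 in replicate 2 the numbers were 228, 162 and 148. The combined regions inside them were narrow and weak. In the gaps of replicate 1 there were 296, and their medians were 1417 bp for the width and 0.34 for the score. In those of replicate 2 there were 588, with medians of 1578 bp and 0.34. Combined regions on these arms had medians of 3444 bp and 0.64 over all 6460. Those inside the gaps are by definition absent from that replicate list, so weak regions are favoured. Combined regions missed by a replicate elsewhere were not compared, and the contrast is no result. Despite the splits, 89.0% of the long gap length of replicate 1 and 80.8% of that of replicate 2 lay in long gaps of the combined list.

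Along the arms, long gaps were most extensive at the centromere end of 2R and 3L, in the middle of 2L and in a bin near the tip of 3R. Each arm was divided into 10 bins of equal length, numbered from its tip. Long gaps took up 68.9% ± 1.79 of bin 10 of 2R and 64.0% ± 8.88 of bin 10 of 3L (SD over the replicate lists, n = 2). Stretches at arm ends are not gaps by the rule and were left out of all bins. Bin 10 of 3L had 70.3% in replicate 1 and 57.7% in replicate 2, whose empty last 519159 bp were not counted. Counting that stretch would raise the 3L mean. On 2L the highest values were inside the arm, with 58.4% ± 3.74, 66.7% ± 4.44 and 62.7% ± 2.74 in bins 6, 7 and 8, and bin 10 had 54.1% ± 2.35. Bin 4 of 2L, at 19.9% ± 5.20, was the lowest of all bins on the 4 arms. On 3R the highest were bin 2 (57.4% ± 2.47) and bin 5 (53.0% ± 2.41), and bin 10 had the lowest share of that arm in both replicate lists, 28.5% ± 5.09. In the combined list bin 6, at 22.1%, was just below bin 10, at 22.5%. At the tips, long gaps took up 40.7% ± 2.78 of bin 1 on 2L, 34.3% ± 1.70 on 3R, 24.3% ± 4.52 on 2R and 23.1% ± 1.23 on 3L. The 3L value leaves out an empty stretch at the tip, of 55950 to 56332 bp over the combined and replicate lists. Its place below 2R may depend on this.

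**Figure D3:**
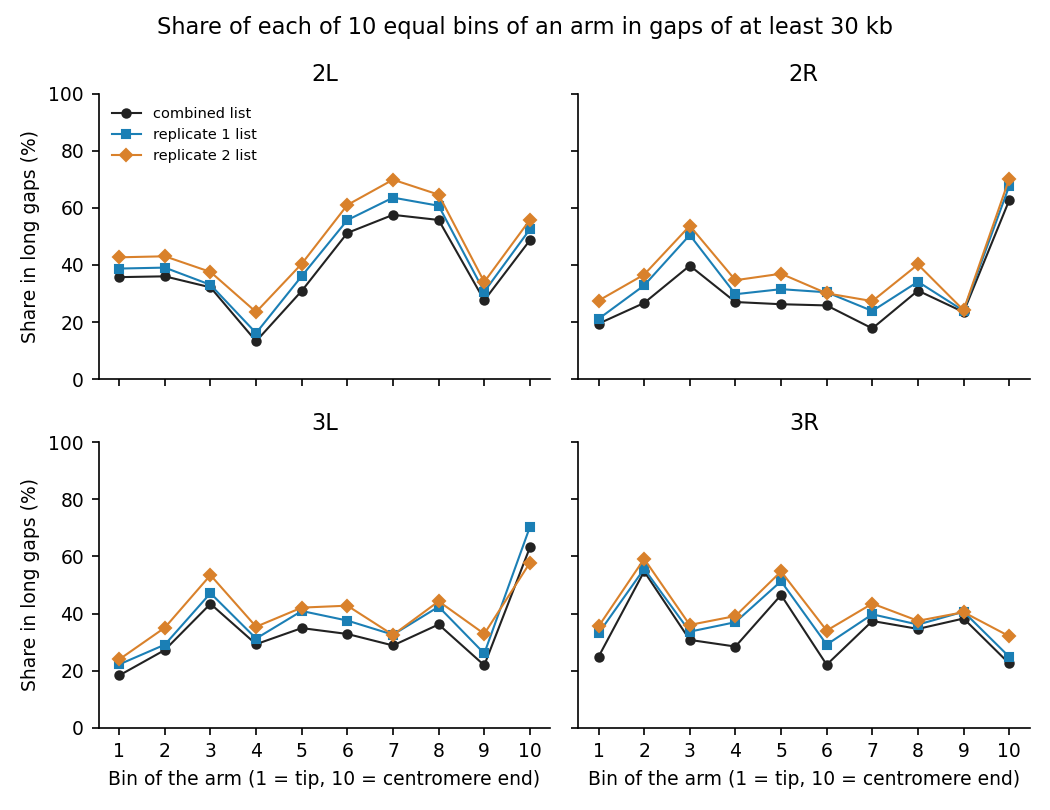
Share of each of 10 equal bins of an arm that lies in gaps of at least 30 kb (vertical axis, %), from the tip (bin 1) to the centromere end (bin 10), in the combined list and both replicate lists. Values rise in bin 10 of 2R (68.9% ± 1.79, SD, n = 2) and 3L (64.0% ± 8.88) and stand high in bins 6 to 8 of 2L. Stretches at arm ends are not counted, which lowers replicate 2 in bin 10 of 3L. On 3R the replicate mean is lowest in bin 10.

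The middle of 2L was followed further. From 11505773 to 18409235, which is 6.90 Mb, 39 long gaps had their centres and summed to 3.76 Mb. Of the 28 gaps of at least 100 kb on 2L, 16 were here. Empty in both replicate lists were 23 of the 39, beside 65 of 115 (56.5%) on all of 2L and 61.2% of all 6454 gaps. That count is therefore no trait of the interval. Long gaps took up 60.0% of this interval in replicate 1 and 65.2% in replicate 2, and 54.8% in the combined list. The interval was picked for its high share after the values were seen, and it has no test.

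At the centromere end 3R went the other way from the other arms. Windows of 2 Mb were taken from this end of each assembled arm, and the distance from there to the centromere was not measured. On 2R, long gaps took up 72.8% ± 1.90 of the 2 Mb at the centromere end (SD, n = 2). They took up 32.6% ± 2.58 of the remaining arm. The corresponding values were 62.3% ± 2.70 and 43.3% ± 3.33 on 2L and 67.6% ± 10.8 and 36.4% ± 2.55 on 3L. On 3R long gaps took up less of these 2 Mb, 27.5% ± 3.90, than of the remaining arm, 40.6% ± 2.05. On each arm the difference exceeded the spread between replicates. The spread was widest on 3L, at whose end the lists differed. Replicate 2 had no region in its last 519159 bp, and a stretch with a region on 1 side only is not a gap by the rule. With arm ends counted, the share on 3L was 75.2% in replicate 1 and 85.9% in replicate 2, or 80.6% ± 7.59. This was still the widest spread of the 4 arms, and replicate 2 was then the higher. The share on 2L was then 64.8% ± 2.70. On 3L, the 11 gaps of the combined list in this window had a median of 87605 bp against 52273 bp for the other 106, and the order was the same in both replicate lists. On 2R the order was not the same in all lists. The 17 gaps of the combined list had a median of 43403 bp against 49140 bp for the other 79, while the medians were 52278 against 49209 bp in replicate 1 and 54057 against 50400 bp in replicate 2. These windows held 13.0% of the long gap length of the 4 arms and 8.28% of the arm length. Most long gaps were therefore elsewhere: 411 of the 462 lay wholly outside them.

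In windows of 1 Mb, every one of 97 windows contained some sequence in a long gap. The share in the combined list ran from 2.10% to 92.5% with a median of 33.1%, and it exceeded 50% in 14 windows and 75% in 4. Those 4 were the last windows of 3L, from 24000001 to 24543557 (92.5%) and from 23000001 to 24000000 (81.5%), the first of 2R from 1 to 1000000 (80.7%), and 2L from 22000001 to 23000000 (78.8%). With the stretch at the arm end counted, this 2L window had 82.6% and stood second. Inside the arms the highest were 2L from 17000001 to 18000000 (73.3%) and from 15000001 to 16000000 (73.0%). The lowest in the combined list was 3R from 12000001 to 13000000, with 2.11% in each replicate and 2.10% in the combined list. Second was the tip of 3L from 1 to 1000000, with 8.26% in each replicate and 4.39% in the combined list. That tip holds an empty stretch at the arm end, and counting it gave 13.9% in each replicate and 9.99% in the combined list. The window of 2R from 3000001 to 4000000, with 8.00% and 8.44% in the replicates and 7.60% in the combined list, was then lower. With arm ends counted, the SD between windows was 17.4 percentage points, while the median SD between replicates was 2.84, and Pearson's r across the 97 windows was 0.98 between replicates. Without arm ends it was 0.83, since the last window of 3L then has 92.6% in replicate 1 and 4.08% in replicate 2. Windows of 1 library share its depth and are not independent, so this is a description.

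The sequence between long gaps was measured too. Between neighbouring long gaps the median distance was 76.7 kb with a median of 8 regions. Combined regions covered 52.8% of it, a share that follows from taking the long gaps out of the arms. In 17 places at least 500 kb passed without a long gap. The longest lay on 3R at 11729335 to 12978984 (1249650 bp), with 130 regions over 53.3% of it. Others were on 2L at 7781573 to 8620723 (839151 bp, 80 regions) and on 2R at 7329748 to 8162514 (832767 bp, 85 regions).

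Long gaps also stood next to each other. Of the neighbouring gaps of a long gap, 16.7% were long too, against 7.16% of all gaps. A single region parted 77 such pairs, out of 6450 pairs of neighbouring gaps (1.19%). Of the 462 long gaps, 139 (30.1%) had a long gap as a direct neighbour. This share counts either side and was not computed for all gaps, so 7.16% is no background for it. Joined up, the long gaps gave 62 runs of 2 or more, 13 of them of 3 or more, and none had over 4. The longest run was on 3R at 23834984 to 24365270 (530287 bp), made of the longest gap of all, the region of 19075 bp, and a further gap of 197083 bp. The second was on 3L at 24024540 to 24527813 (503274 bp), where only a weak region of 1642 bp with a score of 0.26 stood between gaps of 199462 and 302170 bp. The third was on 2L at 15771764 to 16231448 (459685 bp), with 3 gaps and 2 regions that both replicates found.

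The 77 regions with a long gap on both sides, called islands here, were narrow and weak on the whole. Their median width was 1915 bp and their median score 0.41 in the combined list, against 3580 bp and 0.66 for the 5613 regions beside no long gap. The 770 regions with a long gap on 1 side lay between, with 2855 bp and 0.57. The same order of medians appeared in each replicate list with its own long gaps. In replicate 1 the median scores were 0.54 for 85 islands, 0.69 for 842 regions with a long gap on 1 side and 0.80 elsewhere. In replicate 2 they were 0.63 for 85 islands, 0.77 for 906 regions and 0.82 elsewhere. Median widths ran from 2047 over 2857 to 3620 bp in replicate 1 and from 2121 over 2879 to 3399 bp in replicate 2. Score and width come from the same libraries as the rule, so these differences have no test.

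**Figure D4:**
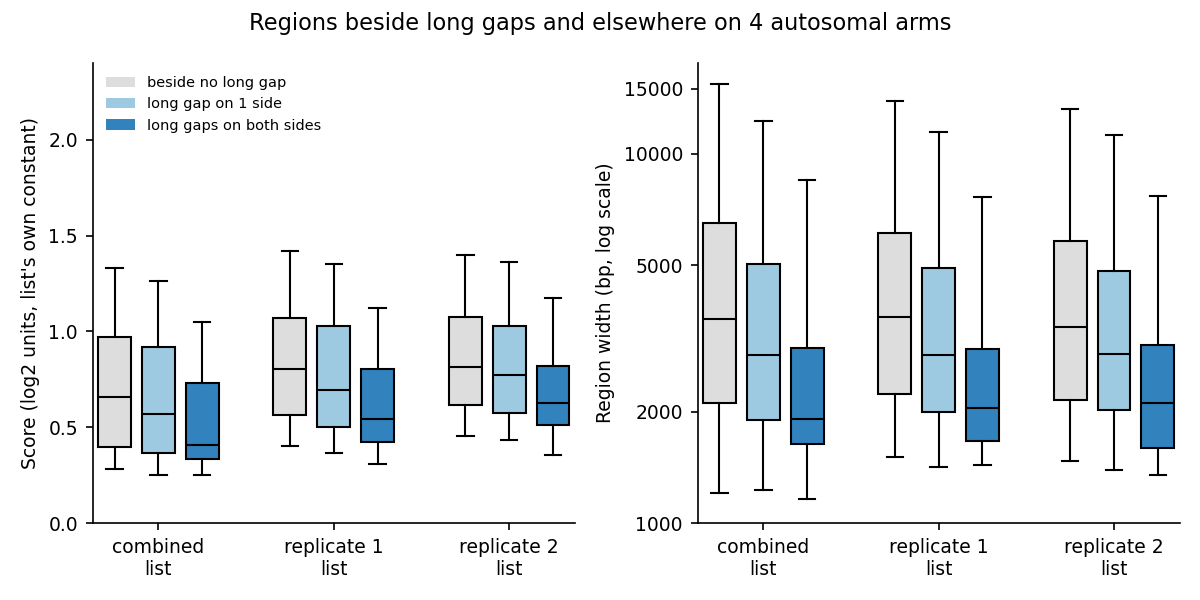
Score (left, log2 units against the constant of each list) and width (right, bp, log scale) of autosomal regions beside no long gap, with a long gap on 1 side and with long gaps on both sides, in the combined list and each replicate list. Lines mark medians, boxes the middle 50% and whiskers the 5th and 95th percentiles. In each list the medians fall from the first class to the third, in the combined list from 0.66 over 0.57 to 0.41 in score.

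The islands were set against the replicate lists. Both replicates overlapped 42 of the 77, or 54.5%, beside 73.8% of all autosomal combined regions. Neither overlapped 17, or 22.1%, beside 13.3% of all. These shares have no test. A further 17 were found in replicate 1 only and 1 in replicate 2 only. That split was not computed over all autosomal regions, so it is no trait of islands. The islands ranged widely, from a width of 1001 to 19075 bp and from a score of 0.13 to 1.53. The strongest island was the region on 3R at 24149113 to 24168187 (19075 bp, score 1.53), with gaps of 314129 and 197083 bp beside it, and each replicate had 2 regions in it. It was followed by 3L at 18389940 to 18398270 (8331 bp) and 2R at 18686542 to 18695206 (8665 bp, score 1.28), which both replicates found. By contrast the island on 2L at 21464015 to 21465015 had a score of 1.00 with the minimum width of 1001 bp, lay between gaps of 66073 and 87364 bp, and was found in neither replicate. These islands were named for their scores after the values were seen.

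Wide regions were counted beside long gaps. Of the 798 autosomal regions of at least 10000 bp, 66 stood beside a long gap (8.27%), against 847 of all 6460 (13.1%), and 2 were islands. The scores of neighbours showed no steady order with gap length. The median score beside gaps of 30 to 40 kb was 0.48, and beside gaps of 40 to 50, 50 to 100, 100 to 200 and over 200 kb it was 0.57, 0.57, 0.51 and 0.56. By place, the 85 regions beside long gaps in the 2 Mb at the centromere ends had a median score of 0.41, and neither replicate overlapped 23 of them (27.1%). The 762 beside long gaps on the rest of the arms had a median of 0.57, and neither replicate overlapped 111 (14.6%). Regions beside no long gap differed less between these places, with medians of 0.63 and 0.66. Neither replicate overlapped 31 (10.0%) and 695 (13.1%) of these. On the rest of the arms the share beside long gaps was thus near that beside none. On each of the 4 arms the median score was lower beside a long gap than elsewhere, with 0.47 against 0.62 on 2L, 0.54 against 0.71 on 2R, 0.57 against 0.63 on 3L and 0.59 against 0.67 on 3R.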

How the data were processed

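The deposited files are lists of enriched regions, 1 for each of 2 H3K4me1 ChIP libraries and 1 combined list, with positions on FlyBase release 5 per the file headers. Bowtie 0.12.7 was used, per the submitters' processing notes. How regions were called, at which threshold, whether the input entered, how the combined list was made and how deep the libraries were sequenced were not given in the sources used here. The scale of the score, not stated by the authors, was settled from the deposited values. Against 1 constant per list, all 7601 scores of replicate 1, 7400 of the 7401 of replicate 2 and 8215 of the 8219 combined scores were the log2 of a ratio of whole numbers (denominators up to 20000, relative tolerance 2e-13), and at most 6 in a list were so with base e or 10. Deposited scores are therefore read as log2 values.

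Gaps and overlaps of at least 1 bp were computed in Python 3.11.15 with pandas 2.3.3 and scipy 1.17.1. On simulated lists of 6400 regions, 100% of 445 gaps were found. The simulation set the spacing itself and held no region reaching over a gap edge, so it checks the code only. The centromere end is the last base of 2L and 3L and the first of 2R and 3R. Windows under 500000 bp at arm ends were left out. Replicate values are mean ± SD (n = 2), and combined values are the authors' own list with no SD.

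The gaps named are the 10 longest, the longest of each arm, 3 on either side of the threshold, those with most sequence under replicate regions and the 3 longest runs. Other gaps and regions were named after their values were seen. Members and rules were chosen with earlier results of these data known. A planned count of genes was not made, because the gene table is of release 6.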

Additional observations from a re-analysis of the deposited data

How the results depend on the processing

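Of 27 values under alternatives, 12 stayed within the spread (for counts, within 1.5 times), 15 moved beyond it and 0 changed direction. Counts and shares cannot change direction, so only the score difference of flanking regions could have done so. The number of long gaps, 462, was 726 with a minimum of 20000 bp and 257 with 50000 bp, and ranged from 506 to 538 in a single replicate list. Their share of the arms, 34.2%, was 40.8% and 26.0% with these minimums, 37.5% when regions found in neither replicate did not end a gap, 41.2% when regions with scores up to the lower quartile did not, and 38.4 to 41.7% in a single replicate list. The gaps empty in both replicates, 266 of 462, were 460 when only regions wholly inside counted. With minimums of 20000 and 50000 bp they were 416 of 726 and 158 of 257, so the number of gaps changed with them. The share of long gap length within 2 Mb of the centromere end, 13.0%, was 7.95% with 1 Mb, 19.9% with 4 Mb and 11.4 to 12.5% in a single replicate list. The median score of flanking regions minus that of all autosomal regions, -0.092, was -0.097 to -0.049 in a single replicate list. The causes of these moves were not tested beyond the change each alternative makes. Counting arm ends in the share at the centromere ends was chosen after seeing the data. No paired analysis was possible because the input libraries, which share the replicate numbers, were not analysed here and no result comes from a test. Depth is unknown, so how many gaps would hold regions at greater depth cannot be given.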
